A study of Homo sapiens with 8 samples.

Results

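The genes described here are 36 interferon response genes, a set of genes given by symbol that includes the ISG15, IFIT, IFITM, MX and OAS families, the transcription factors STAT2, IRF1, IRF2, IRF7 and IRF9, and antiviral sensors and effectors. Each symbol was matched through the gene names deposited beside the gene identifiers, and each matched 1 identifier, so the set is 36 of the 63677 identifiers counted. Their levels were followed in DND-41 and MOLT-4, both human T-cell acute lymphoblastic leukaemia lines. The groups were DND-41 with ACBI-1, DND-41 with DMSO, MOLT-4 with ACBI-1 and MOLT-4 with DMSO, with 2 libraries in each, and all libraries came from cells harvested 8 h after the addition of 100 nM ACBI-1 or of the solvent DMSO. ACBI-1 is a small-molecule degrader that recruits the VHL ubiquitin ligase to SMARCA2 and SMARCA4, the ATPases of the BAF chromatin remodelling complex, and to the related bromodomain protein PBRM1. It acts on protein, so the mRNA of its targets gives no check of the treatment, and protein levels were not measured in these libraries. The labels name no added interferon, each group is a single cell line, and the labels do not tell whether the libraries of a group stem from separate cultures. A p-value here therefore reflects how far these libraries differed among themselves, and that spread may be technical.

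Interferons are secreted cytokines that bind receptors on the same or a neighbouring cell and activate the kinases JAK1 and TYK2, which phosphorylate transcription factors such as STAT2. STAT2 and IRF9 belong to a complex that binds the interferon-stimulated response element (ISRE) in the promoters of interferon response genes, while another element, GAS, serves the response to interferon-gamma. T cells and T-cell leukaemia lines also keep many of these genes at a basal level without added interferon, and members of the IRF family bind the same element as activators or repressors.

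Totals ran from 19860759 to 20239888 counts per library, and the 36 genes took 0.257 to 0.270% of the counts in DND-41 and 0.167 to 0.188% in MOLT-4. All 11 T-lineage markers were detected in every library. Their levels were summed in CPM (counts scaled to a common library size). In DND-41 the sum was 5302 and 4990 with ACBI-1 and 4653 and 4733 with DMSO. In MOLT-4 it was 2647 and 2628 with ACBI-1 and 2972 and 2822 with DMSO. The sum hides markers that moved opposite ways at an adjusted p below 0.05 in edgeR. In DND-41, 3 rose and 5 fell, against 20.0 and 23.2% of all genes tested. In MOLT-4, 2 rose and 7 fell, against 20.7 and 24.4%. The 5 myeloid markers summed to at most 0.695 CPM, and of the 4 markers of plasmacytoid dendritic cells, the professional producers of interferon, all but TCF4 were at or near 0. The 5 B-cell markers, nearly all CD79A, moved with treatment: they summed to 935 and 979 CPM with ACBI-1 and 1569 and 1587 CPM with DMSO in DND-41, and to 4.13 and 4.68 CPM with ACBI-1 and 8.23 and 7.50 CPM with DMSO in MOLT-4. MS4A1 was at 0 in all 8 libraries, and the part of the B-cell markers in the results was not tested. Both MOLT-4 libraries numbered 2 stood apart in the 5 stromal or epithelial markers, which summed to 0.688 and 14.3 CPM with ACBI-1 and to 3.88 and 69.0 CPM with DMSO in MOLT-4, and to at most 0.190 CPM in DND-41. COL1A1 carried most of this, EPCAM and PECAM1 were at 0 in all 8 libraries, and the part of these transcripts in the MOLT-4 results was not tested. Member results that use MOLT-4 rest on both of these libraries, and calls that were lost without them are named. Mitochondrially encoded genes took 15.5 and 11.8% of counts with ACBI-1 and 12.1 and 13.2% with DMSO in DND-41, and 21.3 and 24.6% with ACBI-1 and 18.998 and 14.4% with DMSO in MOLT-4.

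Promoters of members that rose, fell or did not pass the test are shown first, because the element that defines the pathway stands in all of these groups. The sequences are the 160 bases before the RefSeq transcription start on GRCh38.p14, on the strand of the gene, 5′ to 3′, and capitals mark each match to the ISRE core GAAANNGAAA or its reverse complement TTTCNNTTTC. IFIT1 (chr10:89392463-89392622, plus strand) and IFIT3 (chr10:89327837-89327996, plus strand) rose in both lines, IFI44 (chr1:78649629-78649788, plus strand) rose in DND-41 and fell in MOLT-4, IFITM1 (chr11:313880-314039, plus strand) and BST2 (chr19:17405631-17405790, minus strand) fell in both lines, IFITM3 (chr11:320861-321020, minus strand) fell in DND-41, and ISG15 (chr1:1013337-1013496, plus strand) and OAS3 (chr12:112938314-112938473, plus strand) passed the test in neither line.
IFIT1: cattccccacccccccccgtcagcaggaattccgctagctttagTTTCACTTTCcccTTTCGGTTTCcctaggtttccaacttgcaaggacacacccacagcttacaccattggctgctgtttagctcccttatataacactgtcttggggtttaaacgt
IFIT3: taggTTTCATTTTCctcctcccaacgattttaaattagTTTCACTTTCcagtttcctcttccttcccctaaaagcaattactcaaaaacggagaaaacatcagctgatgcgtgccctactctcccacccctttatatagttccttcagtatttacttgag
IFI44: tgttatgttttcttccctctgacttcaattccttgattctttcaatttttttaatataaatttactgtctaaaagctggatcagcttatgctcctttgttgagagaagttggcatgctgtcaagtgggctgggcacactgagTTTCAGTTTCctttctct
IFITM1: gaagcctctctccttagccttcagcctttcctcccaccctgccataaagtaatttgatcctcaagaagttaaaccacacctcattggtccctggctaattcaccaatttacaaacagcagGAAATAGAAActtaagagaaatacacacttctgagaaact
IFITM3: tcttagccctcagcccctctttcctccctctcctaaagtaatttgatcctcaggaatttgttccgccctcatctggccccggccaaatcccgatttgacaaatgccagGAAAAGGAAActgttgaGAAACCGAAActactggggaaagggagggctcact
BST2: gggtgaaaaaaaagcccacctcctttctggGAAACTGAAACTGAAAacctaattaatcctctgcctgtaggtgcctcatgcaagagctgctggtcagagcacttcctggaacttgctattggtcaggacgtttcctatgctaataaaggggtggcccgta
ISG15: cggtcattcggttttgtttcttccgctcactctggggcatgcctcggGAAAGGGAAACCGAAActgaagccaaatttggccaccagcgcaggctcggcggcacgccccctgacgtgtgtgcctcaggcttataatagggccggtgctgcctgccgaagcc
OAS3: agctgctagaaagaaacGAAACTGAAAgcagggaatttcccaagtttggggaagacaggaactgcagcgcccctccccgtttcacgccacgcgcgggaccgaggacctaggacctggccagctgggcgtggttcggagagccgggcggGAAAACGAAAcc

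Counted back from the start site, with −1 as the base before it, the matches began at −116 and −103 in IFIT1, at −156 and −122 in IFIT3, at −18 in IFI44, at −40 in IFITM1, at −52 and −35 in IFITM3, at −130 and −124 in BST2, at −113 and −107 in ISG15 and at −143 and −12 in OAS3. The paired matches of BST2 and of ISG15 overlap each other. A promoter was in the table for 26 of the 36 genes, and 15 of these 26 (57.7%) held the ISRE core on either strand within 250 bases upstream, against 3.02% of all 35116 promoters. The GAS core TTCNNNGAA, which is its own reverse complement, was found in 8 of 26 (30.8%), against 6.57% of all promoters, and in BST2 a match at −136 overlaps the first ISRE match. By response in DND-41, the ISRE core stood in 4 of 9 promoters of members that rose, in 4 of 5 of members that fell and in 7 of 12 without a call. The same counts in MOLT-4 were 2 of 7, 3 of 4 and 10 of 15. The core asks for exactly 2 bases between its repeats. Stretches with 1 base between them, such as gaaacgaaa in OAS1 and gaaatgaaa in IFI35, were not counted in any group. Both of these genes rose in both lines, so the counts can miss related sites. For both cores, a member counted if any of its starts held a match, while all promoters were counted start by start. The member shares and the shares of all promoters thus differ in unit. The match is a description of these letters and does not show that a factor binds there.

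With ACBI-1 the set split instead of moving one way. In DND-41, 12 of the 35 members tested rose (34.3%) and 8 fell (22.9%), while 20.0% of the 14008 genes tested rose and 23.2% fell (43.2% in all) at an adjusted p below 0.05 in edgeR's quasi-likelihood test. In MOLT-4, 9 of 35 rose (25.7%) and 11 fell (31.4%), while 20.7% of the 14239 genes tested rose and 24.4% fell (45.1% in all). Without the MOLT-4 libraries numbered 2, which leaves 1 library in each MOLT-4 group, fewer members were called in each direction. The same held for all genes tested, so that drop is not particular to the members. The median log2 fold change of the members was −0.06 in DND-41 and −0.03 in MOLT-4, beside 0.01 and 0.00 over all genes tested. All libraries of one treatment lay above all of the other for 27 of 35 members in DND-41 (13 higher with ACBI-1, 14 lower) and for 26 in MOLT-4 (12 higher, 14 lower), while of all genes tested 33.4% were so separated higher and 36.2% lower in DND-41 (69.6% in all), and 36.0% higher and 35.8% lower in MOLT-4 (71.8% in all). OASL, a catalytically inactive relative of the OAS enzymes, had 0 to 7 counts per library and was not tested.

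Across lines, 9 members rose in both (IFIT1, IFIT2, IFIT3, IFI35, OAS1, IRF1, DDX58, USP18 and ADAR) and 6 fell in both (IFITM1, IFITM2, OAS2, BST2, SP100 and PML), while 27.7% of the 12859 genes tested in both lines were called in the same direction. IFI44 and IRF2 rose in DND-41 and fell in MOLT-4, and 1.68% of those genes were called in opposite directions. Some of these calls, among them the MOLT-4 decrease of IFI44, did not hold under all alternatives, as given below. Neither line gave a call for 12 members, which were ISG15, ISG20, IFIT5, IFI6, IFI16, IFI27, MX1, OAS3, STAT2, IRF9, XAF1 and EIF2AK2. In these bulk libraries, fewer cells with a transcript and less of it per cell cannot be told apart.

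**Figure D1:**
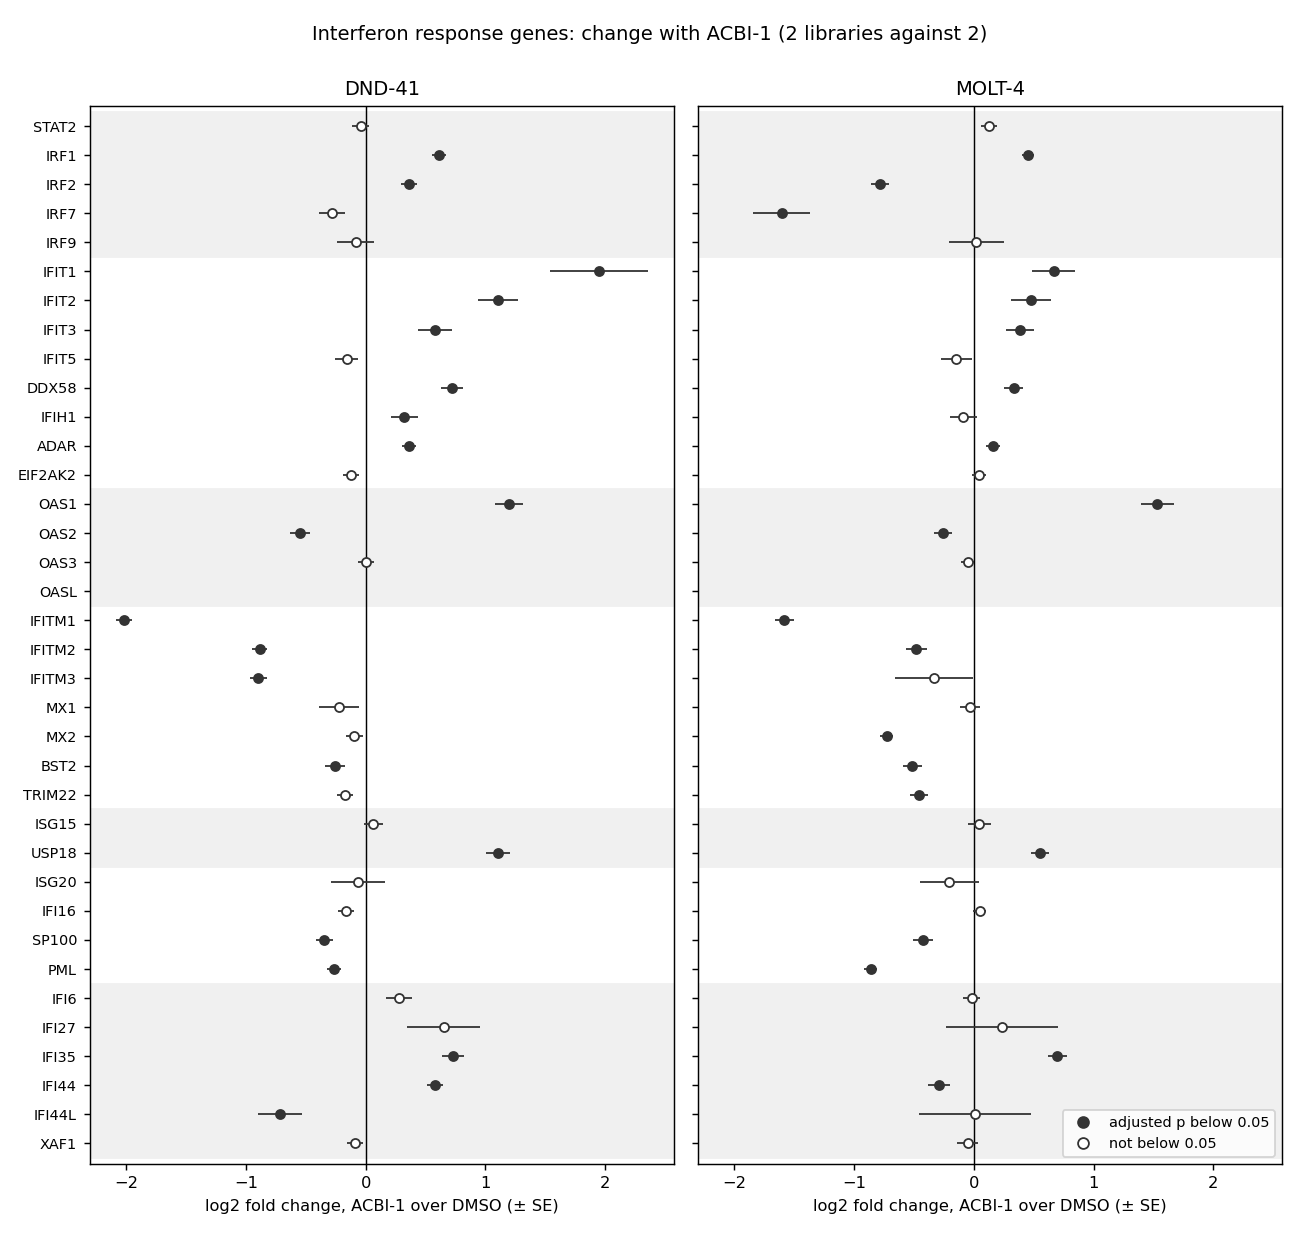
Log2 fold change of each member with ACBI-1 over DMSO (± SE, 2 libraries against 2) in DND-41 and MOLT-4, with members down the page by role on shaded bands. Filled points passed an adjusted p of 0.05. In the band of RNA sensors and IFIT genes, which leaves out the OAS genes, all filled points lie right of 0. IFITM1, at −2.02 in DND-41 and −1.59 in MOLT-4, lies far to the left.

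Among the transcription factors, IRF1, an activator induced by interferon-gamma that binds the ISRE, rose in both lines. It had 231 and 226 CPM with ACBI-1 in DND-41, against 149 and 152 CPM with DMSO, and in MOLT-4 it had 148 and 153 CPM with ACBI-1, against 108 and 111 CPM with DMSO. All ACBI-1 libraries of a line lay above its DMSO libraries, and the log2 fold change was 0.61 ± 0.06 (SE) in DND-41 (adjusted p = 6.75e-07) and 0.45 ± 0.05 in MOLT-4 (adjusted p = 6.35e-07). A gene on the opposite strand overlaps 22.0% of the exon length of IRF1 in GENCODE v29, and the strand setting of the counting is not given.

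IRF2, which competes with IRF1 for the same element and often represses, moved in opposite directions. In DND-41 it had 58.9 and 54.8 CPM with ACBI-1, against 44.8 and 44.7 CPM with DMSO (0.36 ± 0.07, adjusted p = 5.7e-04). In MOLT-4 IRF2 had 24.1 and 23.6 CPM with ACBI-1, against 42.7 and 39.2 CPM with DMSO (−0.78 ± 0.08, adjusted p = 5.92e-08). The groups did not overlap in either line, and with DMSO the lines had not differed beyond the threshold (0.13 ± 0.07, adjusted p = 0.105). The MOLT-4 ACBI-1 libraries were the lowest of the 8. The effect was 1.12 ± 0.10 higher in DND-41 than in MOLT-4 on the log2 scale (interaction in 1 fit of all 8 libraries, adjusted p = 2.33e-07).

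IRF7, the factor that amplifies production of type I interferon, fell in MOLT-4. It had 1.43 and 1.32 CPM with ACBI-1 in MOLT-4, against 4.35 and 4.02 CPM with DMSO (−1.61 ± 0.24, adjusted p = 1.44e-05). In DND-41 it had 9.56 and 9.86 CPM with ACBI-1, against 12.2 and 11.6 CPM with DMSO, a change that did not pass the test although the groups did not overlap (−0.28 ± 0.11, adjusted p = 0.0535). That value lies close to the threshold, which it passed with mitochondrially encoded genes left out (adjusted p = 0.0486) and in 1 fit of all 8 libraries (adjusted p = 0.045). The difference in effect was 1.31 ± 0.23 (adjusted p = 5.99e-04). STAT2 and IRF9, subunits of the ISRE-binding complex, gave no call. STAT2 ranged from 41.4 to 46.4 CPM over all 8 libraries. IRF9 had 4.97 and 5.80 CPM with ACBI-1 and 5.64 and 5.89 CPM with DMSO in DND-41, and 2.47 to 2.83 CPM in MOLT-4. A readthrough gene on the same strand covers 48.4% of the exon length of IRF9, so its counts are uncertain.

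The 8 RNA sensors and RNA-binding effectors gave 6 increases and 0 decreases in DND-41, where 20.0% of all genes tested rose and 23.2% fell. In MOLT-4 they gave 5 and 0, where 20.7% rose and 24.4% fell. This grouping leaves out the OAS genes, of which OAS1 rose and OAS2 fell in both lines. DDX58 encodes RIG-I, the cytoplasmic sensor of RNA with 5′ triphosphates. It had 20.8 and 21.4 CPM with ACBI-1 in DND-41, against 12.99 and 12.84 CPM with DMSO (0.72 ± 0.09, adjusted p = 1.59e-05). In MOLT-4 the values were 25.0 and 23.8 CPM with ACBI-1, against 19.2 and 19.4 CPM with DMSO (0.33 ± 0.08, adjusted p = 0.00262). The ACBI-1 libraries were above the DMSO libraries in both lines. The larger effect in DND-41 (difference 0.37 ± 0.12, adjusted p = 0.0489) was lost on leaving out any 1 of the 8 libraries (adjusted p from 0.0576 to 0.159) or both MOLT-4 libraries numbered 2 (0.35, adjusted p = 0.229).

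IFIH1 encodes MDA5, the sensor of long double-stranded RNA, and rose in DND-41, where it had 11.5 and 10.96 CPM with ACBI-1, against 9.10 and 9.03 CPM with DMSO (0.32 ± 0.11, adjusted p = 0.0306). That call was lost without ACBI-1 replicate 1 (0.28, adjusted p = 0.0775) or either DMSO library (0.32, adjusted p = 0.131 and 0.136). It was also lost with DESeq2 (0.32, adjusted p = 0.182). In MOLT-4 IFIH1 had 10.1 and 10.7 CPM with ACBI-1, against 10.8 and 11.3 CPM with DMSO (−0.09 ± 0.11, adjusted p = 0.553). ADAR, which edits adenosine to inosine in double-stranded RNA and so keeps cellular RNA from being sensed, had 631 and 648 CPM with ACBI-1 in DND-41, against 497 and 505 CPM with DMSO (0.37 ± 0.06, adjusted p = 1.55e-04). In MOLT-4 ADAR had 644 and 658 CPM with ACBI-1, against 587 and 574 CPM with DMSO (0.16 ± 0.06, adjusted p = 0.0342). The groups did not overlap, but the MOLT-4 call was lost without ACBI-1 replicate 1 (0.18, adjusted p = 0.0756), ACBI-1 replicate 2 (0.15, adjusted p = 0.154), DMSO replicate 2 (0.15, adjusted p = 0.0632) or both libraries numbered 2 (0.12, adjusted p = 0.349). EIF2AK2, the kinase PKR that halts translation on binding double-stranded RNA, passed in neither line, with 98.5 and 101 CPM with ACBI-1 and 104 and 115 CPM with DMSO in DND-41, and 92.3 and 88.7 CPM with ACBI-1 and 91.1 and 84.3 CPM with DMSO in MOLT-4.

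The IFIT genes encode proteins that bind viral RNA or its translation machinery. IFIT1, IFIT2 and IFIT3 rose in both lines, but their MOLT-4 calls did not hold under all alternatives. IFIT5, the next gene of the cluster on chromosome 10, did not pass the test. IFIT1, which recognises RNA with an incomplete cap, had 2.01 and 1.51 CPM with ACBI-1 in DND-41 (42 and 33 counts), against 0.24 and 0.68 CPM with DMSO (5 and 14 counts). That is 3.86-fold higher (1.95 ± 0.41, adjusted p = 0.0014), at counts low enough that the size is imprecise. In MOLT-4 IFIT1 had 5.92 and 7.48 CPM with ACBI-1, against 3.51 and 4.86 CPM with DMSO (0.67 ± 0.18, adjusted p = 0.00456). IFIT2, which binds AU-rich double-stranded RNA, had 6.26 and 6.62 CPM with ACBI-1 in DND-41, against 3.13 and 2.90 CPM with DMSO (1.11 ± 0.17, adjusted p = 8.38e-05). Its MOLT-4 values were 5.45 and 6.33 CPM with ACBI-1, against 3.88 and 4.52 CPM with DMSO (0.48 ± 0.17, adjusted p = 0.0237). For both genes each ACBI-1 library exceeded each DMSO library of its line.

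IFIT3, which stabilises IFIT1 on RNA, had 9.08 and 7.72 CPM with ACBI-1 in DND-41, against 5.88 and 5.45 CPM with DMSO (0.58 ± 0.14, adjusted p = 0.00439). In MOLT-4 IFIT3 had 11.1 and 11.8 CPM with ACBI-1, against 8.55 and 8.89 CPM with DMSO (0.38 ± 0.12, adjusted p = 0.0104). The ACBI-1 libraries of IFIT3 were again above the DMSO libraries in both lines. Without both MOLT-4 libraries numbered 2, none of the 3 kept its MOLT-4 call, at 0.74 for IFIT1 (adjusted p = 0.122), 0.48 for IFIT2 (adjusted p = 0.181) and 0.36 for IFIT3 (adjusted p = 0.192). IFIT2 in MOLT-4 was also lost without ACBI-1 replicate 2 or DMSO replicate 1 (0.38 each, adjusted p of 0.163 and 0.13). The MOLT-4 calls of IFIT2 and IFIT3 were also lost with DESeq2 (0.48 and 0.39, adjusted p of 0.175 and 0.116). Scaling to library size alone ended both calls too (0.40 and 0.30, adjusted p of 0.069 and 0.061). The authors' own DESeq2 adjusted p in MOLT-4 was 0.088 for IFIT1, 0.26 for IFIT2 and 0.184 for IFIT3, all above the threshold. IFIT5 had 15.2 and 15.2 CPM with ACBI-1 in DND-41, against 18.0 and 16.2 CPM with DMSO (−0.16 ± 0.10, adjusted p = 0.211). Both MOLT-4 groups of IFIT5 lay between 7.19 and 8.71 CPM and did not overlap (−0.15 ± 0.13, adjusted p = 0.377).

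The OAS enzymes make 2′,5′-linked oligoadenylates that switch on RNase L, and the 3 detected genes, which lie side by side on chromosome 12, gave 3 different results in each line. OAS1 had 18.0 and 15.9 CPM with ACBI-1 in DND-41, against 6.92 and 8.01 CPM with DMSO, and was 2.29-fold higher (1.20 ± 0.12, adjusted p = 1.31e-06). In MOLT-4 OAS1 had 15.97 and 14.1 CPM with ACBI-1, against 5.98 and 4.42 CPM with DMSO, 2.89-fold higher (1.53 ± 0.14, adjusted p = 2.4e-08). It was the member with the largest increase in MOLT-4. OAS2 fell: it had 23.7 and 21.1 CPM with ACBI-1 in DND-41, against 34.0 and 32.0 CPM with DMSO (−0.55 ± 0.08, adjusted p = 9.37e-05). OAS2 in MOLT-4 had 24.9 and 24.2 CPM with ACBI-1, against 29.2 and 29.4 CPM with DMSO (−0.26 ± 0.07, adjusted p = 0.00763). That call ended on leaving out ACBI-1 replicate 2 (−0.23, adjusted p = 0.0554) or both libraries numbered 2 (−0.24). It was also lost with DESeq2 (−0.26, adjusted p = 0.104). OAS1 and OAS2 thus separated the treatments in opposite directions in both lines. OAS3, between them, had 120 and 129 CPM with ACBI-1 and 120 and 131 CPM with DMSO in DND-41 (0.00 ± 0.07, adjusted p = 0.975). In MOLT-4 OAS3 had 111 and 107 CPM with ACBI-1 and 113 and 112 CPM with DMSO (−0.05 ± 0.05, adjusted p = 0.449).

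**Figure D2:**
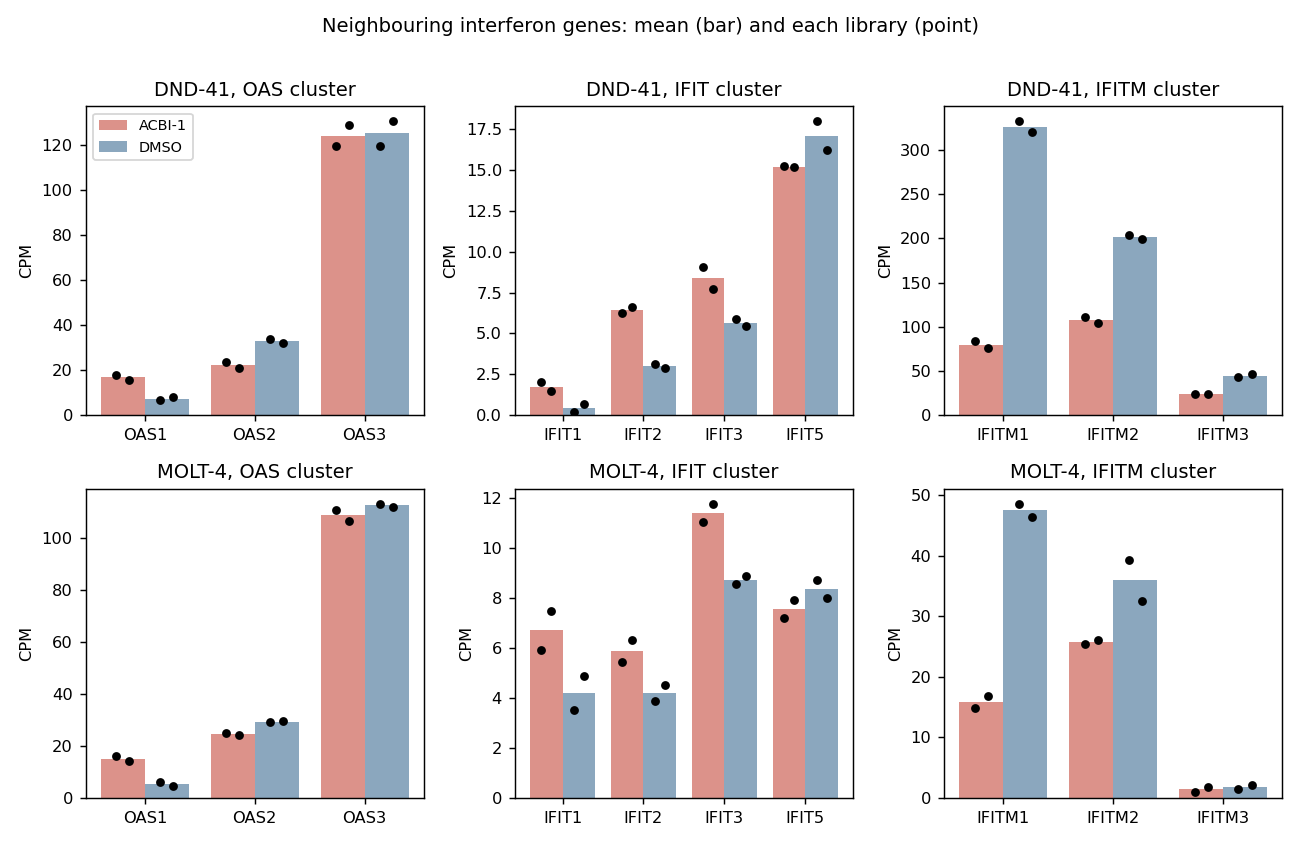
CPM (linear axes from 0) of the OAS, IFIT and IFITM genes in each line, with ACBI-1 bars left of DMSO bars, bars as the mean of 2 libraries and points as the libraries. OAS1 is higher and OAS2 lower with ACBI-1 in both lines while OAS3 is level, and all 3 IFITM genes have lower bars with ACBI-1.

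The 7 restriction factors were IFITM1, IFITM2, IFITM3, BST2, MX1, MX2 and TRIM22. They gave 0 increases and 4 decreases in DND-41 (against 20.0 and 23.2% of all genes tested). In MOLT-4 they gave 0 and 5 (against 20.7 and 24.4% of all genes tested). IFITM1, IFITM2 and IFITM3, membrane proteins that block fusion of virus with the cell, stand together on chromosome 11. IFITM1 had the largest decrease of any member in DND-41: 83.7 and 76.0 CPM with ACBI-1, against 333 and 320.1 CPM with DMSO, 4.05-fold lower (−2.02 ± 0.06, adjusted p = 2.52e-11). In MOLT-4 IFITM1 had 14.9 and 16.8 CPM with ACBI-1, against 48.6 and 46.4 CPM with DMSO (−1.59 ± 0.08, adjusted p = 4.47e-12). The ACBI-1 libraries were far below the DMSO libraries in both lines. The effect was more negative in DND-41 (difference −0.45 ± 0.10, adjusted p = 0.00623), but not past the threshold without MOLT-4 ACBI-1 replicate 2 (−0.36, adjusted p = 0.093) or without both MOLT-4 libraries numbered 2 (−0.31, adjusted p = 0.264).

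IFITM2 had 111 and 105 CPM with ACBI-1 in DND-41, against 204 and 199 CPM with DMSO (−0.88 ± 0.06, adjusted p = 2.79e-08). In MOLT-4 IFITM2 had 25.4 and 26.1 CPM with ACBI-1, against 39.3 and 32.5 CPM with DMSO (−0.48 ± 0.09, adjusted p = 1.28e-04). Exons of IFITM1 and IFITM2 overlap on the same strand over 32.5 and 22.7% of their lengths and the proteins are close paralogs, so the split of counts among the 3 genes is uncertain. IFITM3 had 24.2 and 23.7 CPM with ACBI-1 in DND-41, against 43.8 and 46.2 CPM with DMSO (−0.90 ± 0.07, adjusted p = 1.61e-07). IFITM3 in MOLT-4 stood at 1.06 and 1.87 CPM with ACBI-1 and 1.52 and 2.13 CPM with DMSO. The higher value of each group was in the library numbered 2. The same order held in MOLT-4 for many other members, among them ISG15, IFIT1, IFIT2, IFIT3, MX1, IRF1 and TRIM22. The reverse order held for others, among them IRF2, IRF7, OAS1, OAS3, USP18 and PML. The share of all genes with either order was not counted. The MOLT-4 libraries numbered 2 also held more collagen transcripts, and any link of these to member levels was not tested. The MOLT-4 groups of IFITM3 overlapped (−0.33 ± 0.32, adjusted p = 0.437). The difference in effect between lines was −0.42 ± 0.11 for IFITM2 (adjusted p = 0.0128) and −0.58 ± 0.29 for IFITM3 (adjusted p = 0.217). That of IFITM2 was lost without DND-41 DMSO replicate 1, either MOLT-4 ACBI-1 library or MOLT-4 DMSO replicate 2 (adjusted p from 0.0516 to 0.136), and without both MOLT-4 libraries numbered 2 (−0.25, adjusted p = 0.331).

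BST2, also called tetherin, which holds budding virions on the cell surface, fell in both lines. It had 23.0 and 23.1 CPM with ACBI-1 in DND-41, against 29.3 and 26.3 CPM with DMSO (−0.25 ± 0.08, adjusted p = 0.0226). In MOLT-4 BST2 had 23.1 and 20.6 CPM with ACBI-1, against 30.3 and 32.0 CPM with DMSO (−0.51 ± 0.08, adjusted p = 3e-05). The groups did not overlap, but the DND-41 call was lost without DMSO replicate 1 (−0.18, adjusted p = 0.277). That call was also lost with DESeq2 (−0.25, adjusted p = 0.123) and with library size alone (−0.23, adjusted p = 0.0613). MX2, a nuclear-envelope GTPase that restricts HIV-1 capsids, had 98.1 and 89.3 CPM with ACBI-1 and 96.0 and 106 CPM with DMSO in DND-41, where the groups overlapped (−0.09 ± 0.07, adjusted p = 0.305). MX2 fell in MOLT-4, with 71.7 and 76.1 CPM with ACBI-1, against 122 and 122 CPM with DMSO (−0.73 ± 0.05, adjusted p = 1.72e-09). The difference in effect was 0.62 ± 0.09 (adjusted p = 1.15e-04). Its paralog MX1, which blocks influenza virus in the cytoplasm, had 7.70 and 5.43 CPM with ACBI-1 and 7.16 and 8.25 CPM with DMSO in DND-41 and 38.2 and 46.3 CPM with ACBI-1 and 41.9 and 44.3 CPM with DMSO in MOLT-4, with overlapping groups in both lines. TRIM22, a ubiquitin ligase that restricts several viruses, fell in MOLT-4, where it had 22.3 and 24.3 CPM with ACBI-1, against 30.8 and 32.9 CPM with DMSO (−0.46 ± 0.08, adjusted p = 7.05e-05), and had −0.17 ± 0.07 in DND-41 (adjusted p = 0.0534). Without DND-41 ACBI-1 replicate 1, decreases in DND-41 passed the threshold for MX1 (−0.49, adjusted p = 0.0103), MX2 (−0.17, adjusted p = 0.0312) and TRIM22 (−0.19, adjusted p = 0.0362). TRIM22 there also passed at a minimum count of 30 (adjusted p = 0.0472) and in 1 fit of all 8 libraries (adjusted p = 0.0398).

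**Figure D3:**
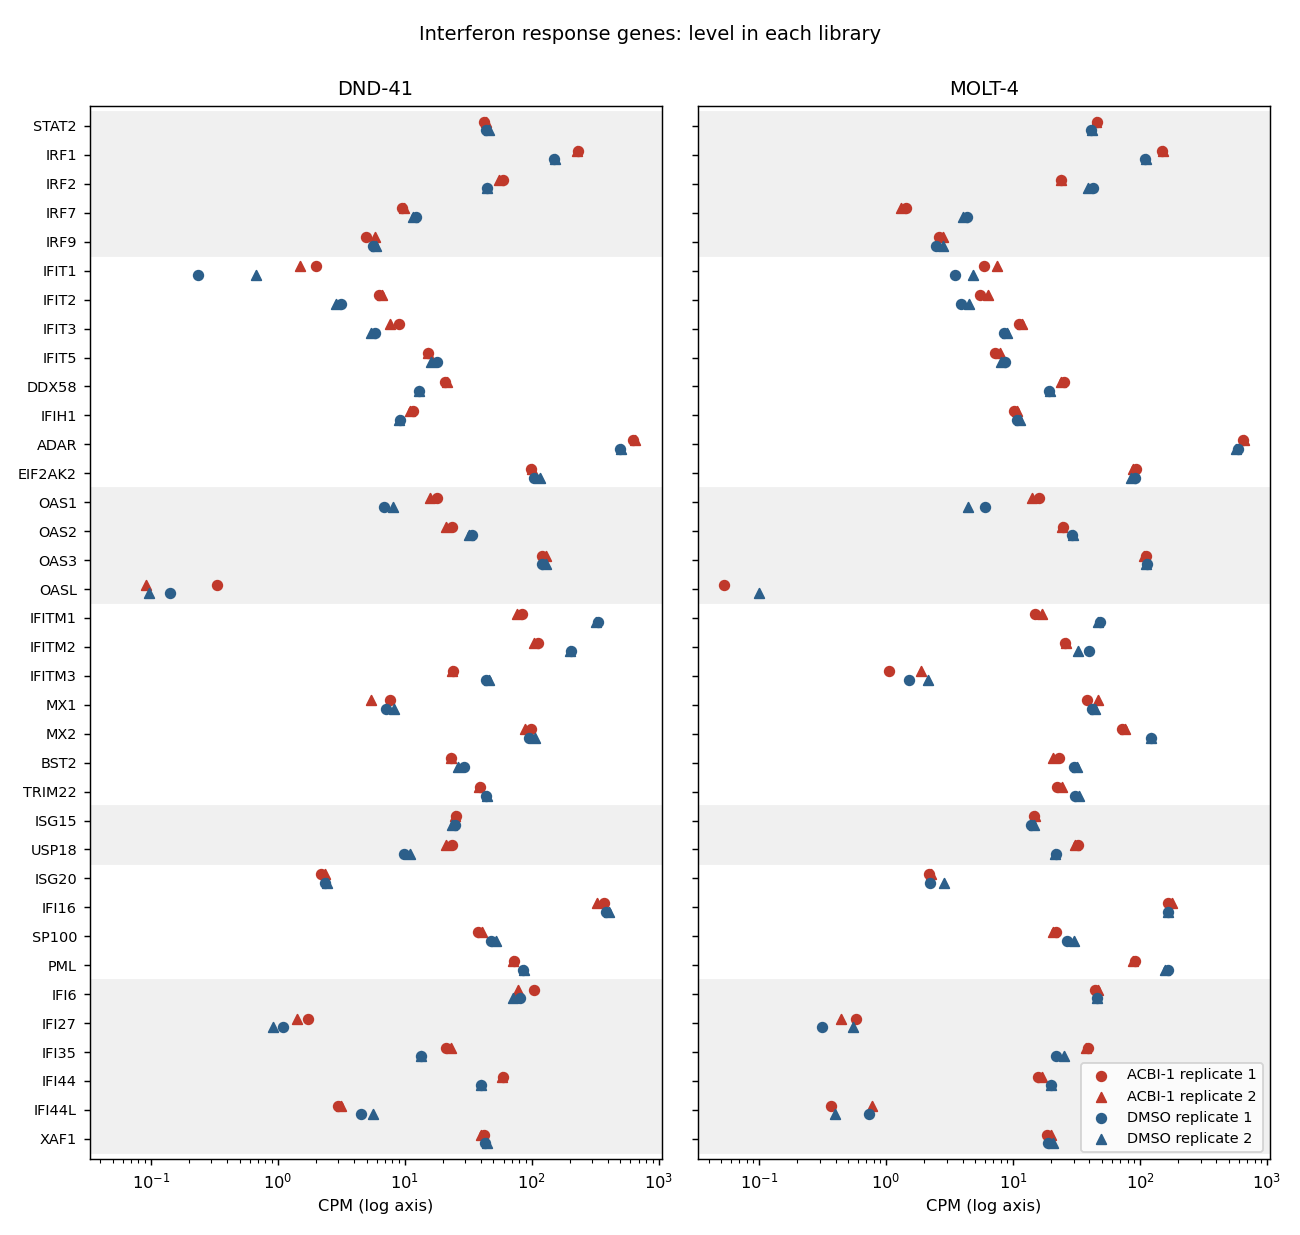
CPM (log axis) of each member in each library, ACBI-1 in red above DMSO in blue for each gene, circles for replicate 1 and triangles for replicate 2, on bands by role. A library with 0 counts is not drawn. ADAR lies between 497 and 658 CPM in all 8 libraries, OASL lies at the low end, and IFITM3 is far lower in MOLT-4 than in DND-41.

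Of the ISG15 system, the protease USP18 passed the test in both lines and the modifier ISG15 in neither. ISG15, a ubiquitin-like protein joined to other proteins after interferon, had 25.3 and 24.7 CPM with ACBI-1 and 24.8 and 23.5 CPM with DMSO in DND-41, and 14.7 and 14.9 CPM with ACBI-1 and 13.9 and 14.7 CPM with DMSO in MOLT-4. Its log2 fold change was 0.06 ± 0.08 in DND-41 (adjusted p = 0.557) and 0.05 ± 0.10 in MOLT-4 (adjusted p = 0.743). USP18, which removes ISG15 and restrains the type I interferon receptor, had 23.6 and 21.1 CPM with ACBI-1 in DND-41, against 9.95 and 10.96 CPM with DMSO, 2.16-fold higher (1.11 ± 0.10, adjusted p = 6.14e-07). In MOLT-4 USP18 had 32.3 and 31.0 CPM with ACBI-1, against 21.7 and 21.2 CPM with DMSO (0.55 ± 0.08, adjusted p = 5.79e-06). The ACBI-1 libraries were above the DMSO libraries in both lines, and the effect was larger in DND-41 (difference 0.54 ± 0.13, adjusted p = 0.00807). That difference was lost without DND-41 DMSO replicate 1 (0.46, adjusted p = 0.0695) and without both MOLT-4 libraries numbered 2 (0.55, adjusted p = 0.0669).

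Of the 4 nuclear effectors, PML and SP100, the scaffold and a partner protein of PML nuclear bodies, fell in both lines. PML had 72.0 and 70.9 CPM with ACBI-1 in DND-41, against 85.9 and 87.4 CPM with DMSO (−0.26 ± 0.06, adjusted p = 0.00269). In MOLT-4 PML had 91.4 and 88.3 CPM with ACBI-1, against 167 and 158 CPM with DMSO (−0.86 ± 0.05, adjusted p = 1.17e-10). The decrease was thus larger in MOLT-4, with a difference of 0.58 ± 0.08 (adjusted p = 5.62e-05). SP100 had 37.8 and 40.4 CPM with ACBI-1 in DND-41, against 47.5 and 52.6 CPM with DMSO (−0.34 ± 0.07, adjusted p = 0.0016). In MOLT-4 SP100 had 21.9 and 20.7 CPM with ACBI-1, against 26.7 and 30.2 CPM with DMSO (−0.42 ± 0.08, adjusted p = 3.42e-04), or −0.30 without both libraries numbered 2 (adjusted p = 0.0955). IFI16, a nuclear DNA sensor, had 374 and 326 CPM with ACBI-1 and 385 and 407 CPM with DMSO in DND-41 (−0.16 ± 0.07, adjusted p = 0.0701). Without DND-41 ACBI-1 replicate 1 it passed the threshold (−0.27, adjusted p = 3.96e-06), as it did in 1 fit of all 8 libraries (−0.18, adjusted p = 0.0351). In MOLT-4 it lay between 166 and 178 CPM in all 4 libraries. ISG20, an exonuclease, lay between 2.17 and 2.88 CPM in all 8 libraries and passed in neither line.

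Among the remaining interferon-induced genes, IFI35, which binds NMI, had 21.0 and 23.1 CPM with ACBI-1 in DND-41, against 13.4 and 13.4 CPM with DMSO (0.73 ± 0.09, adjusted p = 1.79e-05). In MOLT-4 IFI35 had 38.7 and 37.6 CPM with ACBI-1, against 21.8 and 25.1 CPM with DMSO (0.70 ± 0.08, adjusted p = 5.41e-07). It rose by nearly the same amount in both (difference 0.01 ± 0.13). IFI44, a cytoplasmic protein with antiproliferative activity, had 59.8 and 58.1 CPM with ACBI-1 in DND-41, against 39.9 and 39.7 CPM with DMSO (0.58 ± 0.07, adjusted p = 5.02e-06). In MOLT-4 IFI44 had 15.8 and 16.8 CPM with ACBI-1, against 20.0 and 19.8 CPM with DMSO (−0.29 ± 0.09, adjusted p = 0.0119), a decrease that was lost without ACBI-1 replicate 1 (−0.24, adjusted p = 0.0939). The effect differed between lines by 0.86 ± 0.10 (adjusted p = 1.32e-05). Its neighbour IFI44L fell in DND-41, with 2.96 and 3.15 CPM with ACBI-1, against 4.55 and 5.60 CPM with DMSO (−0.71 ± 0.18, adjusted p = 0.00594), or −0.56 without DMSO replicate 2 (adjusted p = 0.0814). MOLT-4 held at most 0.77 CPM of IFI44L.

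IFI6, a mitochondrial protein that opposes apoptosis, had 105 and 77.7 CPM with ACBI-1 and 81.2 and 71.1 CPM with DMSO in DND-41, where the groups overlapped (0.28 ± 0.11, adjusted p = 0.0526). It passed the threshold on leaving out ACBI-1 replicate 2 (0.48, adjusted p = 3.89e-12), and on leaving out DMSO replicate 1 (0.37, adjusted p = 0.00325). With all libraries kept it also passed with RLE scaling (adjusted p = 0.0457), library size alone (0.0331), mitochondrially encoded genes left out (0.0453) and 1 fit of all 8 libraries (0.0394), so the value lies close to the threshold. All MOLT-4 libraries held 44.0 to 47.1 CPM of IFI6. XAF1, a pro-apoptotic antagonist of XIAP, lay between 39.8 and 44.6 CPM in all DND-41 libraries and between 18.6 and 20.7 CPM in all MOLT-4 libraries, without a call. An opposite-strand gene overlaps 38.3% of its exon length. IFI27 was near the detection limit, at 0.92 to 1.72 CPM in DND-41 and 0.31 to 0.58 CPM in MOLT-4, and passed in neither line.

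Whether the effect of ACBI-1 differed between the lines was tested in 1 fit of all 8 libraries. Of 35 members, 7 had a higher effect in DND-41 (IFI44, MX2, IRF2, IRF7, DDX58, USP18 and PML) and 2 a lower one (IFITM1 and IFITM2), while 6.17% of the 15498 genes tested were higher and 7.18% lower (13.3% in all). The calls of IFI44, MX2, IRF2, IRF7 and PML held under all alternatives tried, including each library left out. With scaling to the library total alone, 10 members were higher and 0 lower, and the median of all genes moved by 0.12 on the log2 scale, with 73.9% of all calls higher against 46.2% with TMM scaling. IFI44, MX2, IRF2, IRF7 and PML stayed past the threshold with that scaling. The count of lower members rested on single libraries: it was 4 without DND-41 ACBI-1 replicate 1, where OAS2 (−0.39, adjusted p = 0.0363) and IFI16 (−0.34, adjusted p = 0.00859) passed, 0 without MOLT-4 ACBI-1 replicate 2, and 1 without DND-41 DMSO replicate 1, MOLT-4 ACBI-1 replicate 1 or MOLT-4 DMSO replicate 2. A higher effect in DND-41 passed for IFIT1 without DND-41 DMSO replicate 2 (2.18, adjusted p = 0.0336) and for IFI6 without DND-41 ACBI-1 replicate 2 (0.48, adjusted p = 0.0027). Without both MOLT-4 libraries numbered 2, fewer members passed in each direction, as did fewer of all genes tested.

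With DMSO alone the lines already differed in most members: 19 of 35 were higher in DND-41 (54.3%), 11 were lower (31.4%) and 5 gave no call, while 30.7% of the 15498 genes tested were higher and 33.2% lower (63.8% in all). The DMSO libraries of the lines did not overlap for 34 members (22 higher in DND-41, 12 lower), beside 40.3% higher and 41.8% lower (82.0% in all) of the genes tested. The median difference was 0.32 on the log2 scale, beside −0.01 over all genes tested. IFITM3 differed most, with 43.8 and 46.2 CPM in DND-41 against 1.52 and 2.13 CPM in MOLT-4, 24.4-fold higher (4.61 ± 0.14, adjusted p = 1.29e-15). IFITM1 was 2.78 ± 0.07 higher (adjusted p = 2.78e-17) and IFITM2 2.49 ± 0.07 higher (adjusted p = 7.51e-16), so all 3 detected IFITM members were higher in DND-41. IFI44L was 3.16 ± 0.30 higher in DND-41 (adjusted p = 2.37e-08) and IRF7 1.50 ± 0.13 higher (adjusted p = 6.61e-09). Going the other way, MX1 had 7.16 and 8.25 CPM in DND-41 against 41.9 and 44.3 CPM in MOLT-4 (−2.48 ± 0.13, adjusted p = 2.25e-12), and IFIT1 was −3.19 ± 0.34 (adjusted p = 1.43e-07).

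By role, and beside the 30.7% of all genes tested that were higher and the 33.2% that were lower, 6 of 8 RNA sensors and IFIT genes were lower in DND-41 than in MOLT-4 with DMSO, and IFIT5 and EIF2AK2 were higher. Of the 7 restriction factors, 4 were higher and 2 lower, and of the 5 transcription factors 3 were higher. The DMSO libraries enter both this comparison and those of treatment, so the 2 sets of values are given side by side and no relation between them is drawn. Leaving out DMSO replicate 2 of DND-41 ended the call of OAS1 (0.42, adjusted p = 0.0716), OAS3 (0.09, adjusted p = 0.327), IFIT2 (−0.42, adjusted p = 0.107) and IFIH1 (−0.27, adjusted p = 0.1). Without MOLT-4 DMSO replicate 2 the same 4 genes lost their call, at 0.31 for OAS1 (adjusted p = 0.151), 0.13 for OAS3 (adjusted p = 0.162), −0.38 for IFIT2 (adjusted p = 0.163) and −0.26 for IFIH1 (adjusted p = 0.119). Without DND-41 DMSO replicate 1 the calls of IFI27 (1.07, adjusted p = 0.0996) and IFIH1 (−0.28, adjusted p = 0.0887) were lost. Without MOLT-4 DMSO replicate 1 those of IFI27 (0.87, adjusted p = 0.144), IFIH1 (−0.31, adjusted p = 0.0528) and OAS3 (0.16, adjusted p = 0.0813) were lost. Without both MOLT-4 libraries numbered 2, the calls of IFIT2 (−0.38, adjusted p = 0.171), OAS1 (0.31, adjusted p = 0.162), OAS3 (0.13, adjusted p = 0.205) and IFIH1 (−0.26, adjusted p = 0.129) were lost. OAS2 passed on leaving out either DND-41 ACBI-1 library (0.17, adjusted p of 0.0473 and 0.0465). Scaling to the library total alone moved the median of all genes by 0.10 in this comparison.

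**Figure D4:**
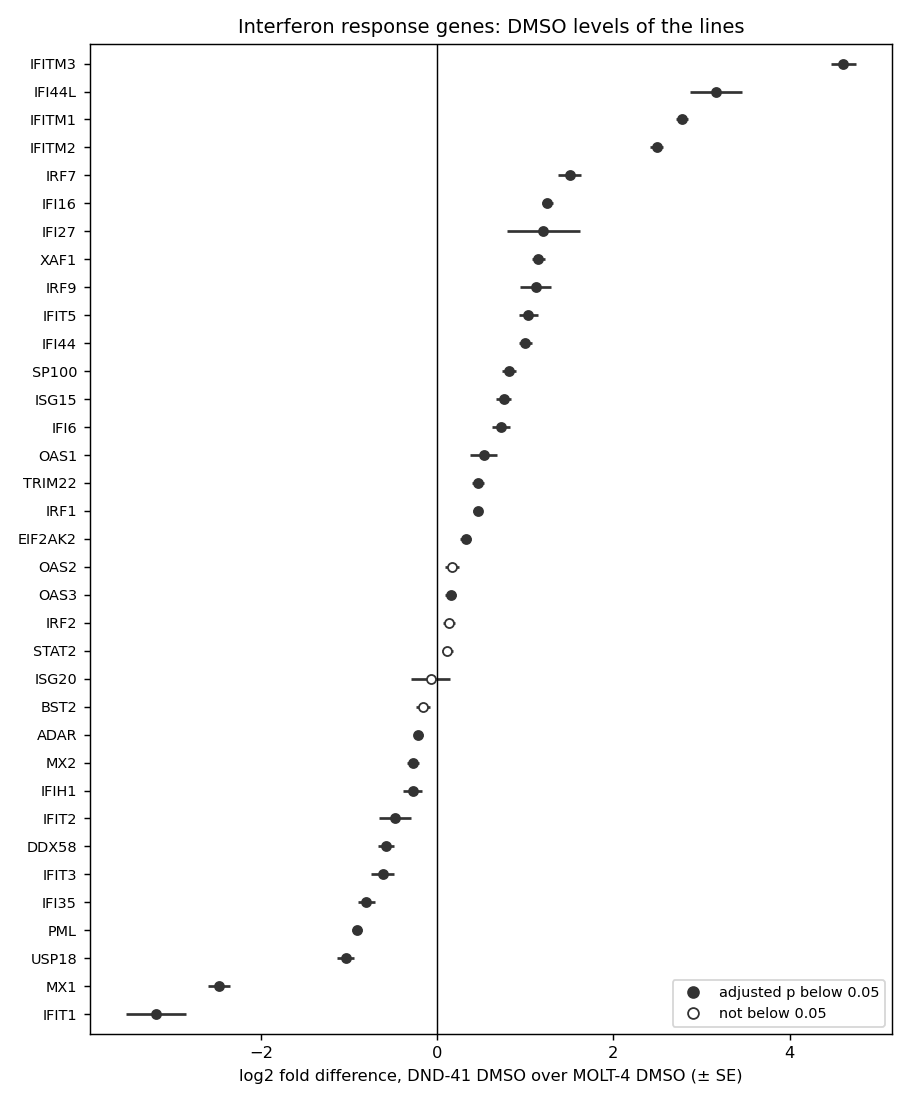
Log2 difference of each member between the lines with DMSO, DND-41 over MOLT-4 (± SE, 2 libraries each), ordered by size, with filled points past an adjusted p of 0.05. IFITM3 at 4.61 is the highest and IFIT1 at −3.19 the lowest.

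Levels of different genes were compared per length, as reads per kilobase of exon at a common library size (RPKM) from exon lengths of GENCODE v29. With DMSO in DND-41, IFITM1 led at 302.1 RPKM, followed by IFITM2 at 131 and IFI6 at 88.0 RPKM. With ACBI-1 in DND-41, IFI6 led at 106 RPKM, and IFITM1 stood at 73.9 and IFITM2 at 70.1 RPKM. In MOLT-4, ADAR led with ACBI-1 at 67.2 RPKM and with DMSO at 59.9 RPKM, and IFITM1 stood at 14.7 RPKM with ACBI-1, against 44.0 RPKM with DMSO. The lowest tested members in DND-41 with DMSO were IFIT1 at 0.10 and IFI27 at 0.24 RPKM.

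Around the set, 92 other genes of the pathway were listed by role. In DND-41, 23 of 75 tested rose (30.7%) and 25 fell (33.3%), against 20.0 and 23.2% of all genes tested, with a median of −0.01. In MOLT-4, 20 of 75 rose (26.7%) and 28 fell (37.3%), against 20.7 and 24.4% of all genes tested, with a median of −0.05. Interferon mRNA was close to undetectable at this depth: 22 interferon ligand genes had 5 counts in all among 160648204, with 19 at 0 in every library, and a count of 0 allows up to 3 counts, or 0.15 CPM, in a library. Of the 9 ligands and receptors, 0 of 5 tested rose and 3 fell in DND-41 (against 20.0 and 23.2% of all genes), and 0 of 6 rose and 4 fell in MOLT-4 (against 20.7 and 24.4%). IFNAR2, the signalling chain of the type I receptor, had 18.8 and 21.3 CPM with ACBI-1 in DND-41, against 33.5 and 34.4 CPM with DMSO (−0.75 ± 0.08, adjusted p = 4.7e-06). In MOLT-4 IFNAR2 had 32.3 and 28.4 CPM with ACBI-1, against 50.0 and 52.4 CPM with DMSO (−0.76 ± 0.08, adjusted p = 1.53e-07). Its partner IFNAR1 was −0.22 ± 0.07 in DND-41 (adjusted p = 0.0183), a call lost without DMSO replicate 2 (−0.17, adjusted p = 0.254), and −0.08 ± 0.06 in MOLT-4 (adjusted p = 0.34).

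The interferon-gamma receptor chain IFNGR1 passed in neither line, and IFNGR2 was −0.45 ± 0.08 in DND-41 (adjusted p = 3.43e-04) and −0.28 ± 0.09 in MOLT-4 (adjusted p = 0.0133), the second lost without either MOLT-4 library numbered 2 (adjusted p of 0.119 and 0.112) and without both (−0.15, adjusted p = 0.428). Of the 3 kinases at these receptors, JAK2, named after its values were seen, rose in both lines. It had 12.2 and 13.9 CPM with ACBI-1 in DND-41, against 9.76 and 9.65 CPM with DMSO (0.44 ± 0.11, adjusted p = 0.0052). In MOLT-4 JAK2 had 12.5 and 14.03 CPM with ACBI-1, against 8.76 and 9.23 CPM with DMSO (0.55 ± 0.11, adjusted p = 5.19e-04). JAK1 was −0.22 ± 0.06 in DND-41 (adjusted p = 0.00933), not past the threshold on leaving out either DMSO library (adjusted p of 0.0636 and 0.135). It was −0.13 ± 0.06 in MOLT-4 (adjusted p = 0.0853), and TYK2 passed in neither line.

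Among 18 upstream sensors and adaptors, 1 of 11 tested rose (9.09%) and 6 fell (54.5%) in DND-41, against 20.0 and 23.2% of all genes, and 2 rose (18.2%) and 5 fell (45.5%) in MOLT-4, against 20.7 and 24.4%. TMEM173, which encodes the DNA-sensing adaptor STING, had 6.74 and 6.67 CPM with ACBI-1 in DND-41, against 16.1 and 16.03 CPM with DMSO (−1.25 ± 0.11, adjusted p = 3.99e-07). In MOLT-4 TMEM173 had 2.22 and 2.48 CPM with ACBI-1, against 13.95 and 15.7 CPM with DMSO (−2.66 ± 0.15, adjusted p = 1.98e-11). Of the 9 negative regulators and related enzymes, 8 were tested, with 3 increases and 3 decreases in DND-41 (against 20.0 and 23.2% of all genes) and 2 and 4 in MOLT-4 (against 20.7 and 24.4%). SOCS1, which inhibits JAK kinases, had 234 and 239 CPM with ACBI-1 in DND-41, against 179 and 170.1 CPM with DMSO (0.45 ± 0.06, adjusted p = 1.92e-05), and 9.91 to 12.2 CPM over MOLT-4, without a call. UBA7, which activates ISG15 for conjugation, fell in both lines, in DND-41 (−0.96 ± 0.07, adjusted p = 3.31e-08) and MOLT-4 (−0.94 ± 0.08, adjusted p = 6.64e-09).

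Of 51 other interferon-induced genes, 17 of 46 tested rose (37.0%) and 11 fell (23.9%) in DND-41, against 20.0 and 23.2% of all genes, and 14 of 45 rose (31.1%) and 14 fell (31.1%) in MOLT-4, against 20.7 and 24.4%. The increases with the smallest p included DDX60, a helicase that promotes RIG-I signalling (1.50 ± 0.08 in DND-41, adjusted p = 4.25e-09), C19orf66, an inhibitor of ribosomal frameshifting (1.02 ± 0.07 in DND-41, adjusted p = 5.37e-08), and SAMD9L (0.77 ± 0.06 in DND-41, adjusted p = 2.21e-07, and 0.86 ± 0.07 in MOLT-4, adjusted p = 2.82e-09). RSAD2, which encodes the antiviral enzyme viperin, had 24.5 and 19.9 CPM with ACBI-1 in MOLT-4, against 6.45 and 6.06 CPM with DMSO (1.82 ± 0.12, adjusted p = 3.46e-10). RSAD2 in DND-41 had 11.1 and 12.8 CPM with ACBI-1, against 7.16 and 8.45 CPM with DMSO (0.63 ± 0.13, adjusted p = 9.94e-04). CMPK2, the kinase encoded beside viperin, rose in MOLT-4 (0.89 ± 0.08, adjusted p = 1.19e-08) and was 0.03 ± 0.07 in DND-41 (adjusted p = 0.758). TRIM14, an adaptor of RNA sensing, rose in MOLT-4 (0.64 ± 0.05, adjusted p = 7.89e-09).

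Decreases in this list included SLFN5, a Schlafen family protein, with 11.1 and 13.1 CPM with ACBI-1 in DND-41, against 38.8 and 37.9 CPM with DMSO (−1.64 ± 0.09, adjusted p = 3.92e-09). SLFN5 in MOLT-4 had 21.8 and 22.3 CPM with ACBI-1, against 91.6 and 100.0 CPM with DMSO (−2.12 ± 0.07, adjusted p = 1.94e-14). The guanylate-binding proteins GBP5 (−1.32 ± 0.08, adjusted p = 5.64e-09) and GBP4 (−0.86 ± 0.06, adjusted p = 2.9e-08) fell in DND-41. From the negative regulators, the exonuclease TREX1, which clears cytoplasmic DNA, fell in DND-41 (−1.26 ± 0.08, adjusted p = 1.22e-08) and the phosphatase PTPN6 fell in MOLT-4 (−1.91 ± 0.08, adjusted p = 4.7e-13). In DND-41 a decrease of PTPN6 passed the threshold only in 1 fit of all 8 libraries (−0.79, adjusted p = 0.0356).

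In the authors' deposited tables, 16 members had an adjusted p below 0.05 in DND-41 and 14 in MOLT-4, and all of these were also called from the counts. By the direction of the counts, 10 of the 16 rose and 6 fell in DND-41, and 5 of the 14 rose and 9 fell in MOLT-4. The share of all genes below that threshold in the authors' tables was not counted. These member counts are therefore a check of calls and not a result about the set. The signs in the authors' deposited table for DND-41 matched the counts for all 6056 genes called here, while those for MOLT-4 were opposite for all 6425, so that table runs as DMSO over ACBI-1 and its fold changes are not printed.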

How the data were processed

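Total RNA of DND-41 and MOLT-4 cells given ACBI-1 or DMSO was sequenced in strand-specific libraries, as 100 bp pairs per the labels, with 8 libraries in 4 groups of 2. The submitters' processing notes name STAR 2.5.2a, featureCounts, DESeq2 1.12.4 and the hg19 build, while neither the annotation nor the strand setting of the counting is stated there. The deposited values are whole-number counts per gene, not normalized. Result tables deposited by the authors give log2 fold changes and their errors, per the file headers. They also give p-values, raw and adjusted, by the authors. The score columns deposited there are the mean normalized count and the test statistic. The headers do not state the direction of these contrasts, and the tables served only to check calls and signs and to give gene names.

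Each line was fitted on its own with edgeR 4.0.16 (R 4.3.3, limma 3.58.1): genes kept by filterByExpr with a minimum count of 10, TMM scaling, the quasi-likelihood F test, and Benjamini-Hochberg adjustment over all genes tested, with a threshold of 0.05. The difference between lines and the DMSO comparison came from group means in 1 fit of all 8 libraries. The standard error is the absolute log2 fold change over the root of F, and CPM are over TMM-scaled library sizes. The fits were also run on simulated counts with 200 changed genes in balanced directions, far fewer than were called here. That run cannot show how scaling or error rates behave at the share of calls in these data. Alternatives were RLE and total-count scaling, no filter and a minimum count of 30, DESeq2 1.42.0, a replicate block, no mitochondrially encoded genes, 1 fit of all 8 libraries, a threshold of 0.01, each library left out, and both MOLT-4 libraries numbered 2 left out. Pearson's r between replicates, over log2 CPM of genes with a mean count of at least 10, lay between 0.995 and 0.997. In no group did the replicates hold identical counts.

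All 36 members were described. Of the other pathway genes, those named are up to 4 in each direction and line with the smallest adjusted p at a mean of 2 CPM or more, and IFNAR1, IFNAR2, IFNGR1, IFNGR2, JAK1, TYK2 and SOCS1 whatever their values, with JAK2 added after its values were seen. A gene that the rule also names is counted in the lists but not reported here. The members and all lists were chosen with earlier results of these data known, and the 22 ligand genes and the overlap notes were added after the values were seen. Exon lengths and overlaps were taken by gene identifier from GENCODE v29 (GRCh38), another build than hg19, and promoters by symbol from RefSeq (GRCh38.p14). The depth of each library puts 3 counts at 0.15 CPM, so members below about 1 CPM rest on few counts.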

Additional observations from a re-analysis of the deposited data

Results flagged for a closer look

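The effect of ACBI-1 differed between DND-41 and MOLT-4, as DND-41 minus MOLT-4 on the log2 scale in edgeR's interaction test, for 9 members. It was higher in DND-41 for IRF7 (1.31), IRF2 (1.12), IFI44 (0.86), MX2 (0.62), PML (0.58), USP18 (0.54) and DDX58 (0.37). It was lower in DND-41 for IFITM1 (−0.45) and IFITM2 (−0.42). Of these, IFI44 and IRF2 rose in one line and fell in the other, IRF7 and MX2 passed the test in MOLT-4, where they fell, and not in DND-41, and the others passed in the same direction in both lines. The MOLT-4 decrease of IFI44 was lost with DESeq2 and without MOLT-4 ACBI-1 replicate 1. The differences of DDX58, IFITM1, IFITM2 and USP18 were each lost on leaving out at least 1 of the libraries.

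Among the named pathway genes outside the set, the effect was higher in DND-41 for TMEM173 (1.40), PTPN6 (1.12), C19orf66 (0.86), DDX60 (0.85) and SLFN5 (0.46). It was lower in DND-41 for RSAD2 (−1.21), CMPK2 (−0.88), TREX1 (−0.61) and GBP4 (−0.48). The differences of PTPN6 and SLFN5 were lost without single libraries, namely for PTPN6 DND-41 ACBI-1 replicate 1 (adjusted p = 0.183), DND-41 DMSO replicate 2 (0.134) and MOLT-4 ACBI-1 replicate 1 (0.0651), and for SLFN5 DND-41 ACBI-1 replicate 2 (0.105), DND-41 DMSO replicate 2 (0.0588) and MOLT-4 ACBI-1 replicate 1 (0.0644). Without both MOLT-4 libraries numbered 2, PTPN6 (0.0559), SLFN5 (0.101) and GBP4 (0.0619) had an adjusted p above 0.05.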

How the results depend on the processing

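No member reversed among its calls under any alternative run. Over the alternatives, 11 to 13 members rose and 7 to 12 fell in DND-41, 5 to 9 rose and 9 to 11 fell in MOLT-4, 5 to 10 had a higher and 0 to 4 a lower effect in DND-41 than in MOLT-4, and 17 to 22 were higher and 8 to 11 lower in DND-41 with DMSO. All alternatives kept 17 of 20 calls in DND-41, 13 of 20 in MOLT-4, 5 of 9 of the difference and 24 of 30 with DMSO. Leaving out both MOLT-4 libraries numbered 2 lowered the members that rose in MOLT-4 to 5, against 9, and leaves 1 library in each MOLT-4 group, assumed to vary like DND-41. The members with a lower effect in DND-41 were 2, and 0 with library size alone, 0 without both MOLT-4 libraries numbered 2, 1 at a threshold of 0.01, and 0 to 4 with 1 library left out, for causes that were not tested. With library size alone, 6 members rose and 11 fell in MOLT-4, ADAR there was 0.08 (adjusted p = 0.531), and 31.2% of all MOLT-4 calls were higher, against 45.9%. DESeq2 gave 11 higher and 7 lower members in DND-41 and 7 and 9 in MOLT-4. The calls it lost were IFIH1 and BST2 in DND-41, and IFIT2, IFIT3, IFI44 and OAS2 in MOLT-4. Over all genes, those that rose in DND-41 numbered 2807, against 1745 without DMSO replicate 1, 1817 without DMSO replicate 2, 1856 with DESeq2 and 1838 at a threshold of 0.01. Those that rose in MOLT-4 numbered 2948, against 1781 with library size alone, 1962 with DESeq2 and 1357 without both libraries numbered 2, where 2232 fell, against 3477. For the difference, 956 were higher and 1112 lower, against 504 and 440 without both libraries numbered 2, and 559 and 619 at a threshold of 0.01.

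Replicate numbers are shared between the groups, and the 2 pairs of a line deviated together only weakly (correlation 0.0834 in DND-41 and 0.224 in MOLT-4). These values cannot tell whether libraries with the same number shared a culture or preparation. The main fits treated them as unpaired. With a replicate block, 13 members rose and 11 fell in DND-41, 9 rose and 11 fell in MOLT-4, 9 had a higher and 2 a lower effect in DND-41, and 20 were higher and 11 lower in DND-41 with DMSO. The calls gained with the block were IFI6 (0.27, adjusted p = 2.41e-05), IFI16 (−0.17, 0.009), IRF7 (−0.28, 0.0427) and TRIM22 (−0.17, 0.0285) in DND-41, the differences of IFIT1 (1.25, 0.0457) and IFI6 (0.27, 0.0444), and OAS2 with DMSO (0.17, 0.0416), and no member call was lost.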

Other observations

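Genes beside the 3 member clusters were read, and those named chosen, after the values were seen, by their order in the RefSeq table, with values as log2 fold change with ACBI-1 in DND-41 and in MOLT-4. Beside the IFITM genes, NLRP6, an innate sensor, fell by 1.89 and by 2.40 on the log2 scale (adjusted p of 2.08e-05 and 1.02e-05), the mitochondrial deacetylase SIRT3 fell by 1.04 and by 1.42 (5.82e-06 and 1.71e-06), and SIGIRR, an inhibitor of interleukin-1 receptor signalling, fell by 0.79 and by 0.86 (8.29e-07 and 4.69e-08). RIC8A and PSMD13 in the same stretch passed in neither line (adjusted p from 0.264 to 0.881). PTDSS2 there fell in both lines (−0.33 and −0.21), while ANO9 fell (−1.82) and RNH1 rose (0.30) in MOLT-4. For scale, 27.7% of the 12859 genes tested in both lines were called in the same direction.

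Around the IFIT genes, LIPA, the lysosomal acid lipase, rose (0.58 and 0.78, adjusted p of 2.27e-05 and 1.72e-09), while the death receptor gene FAS (−0.69 and −1.40, adjusted p of 0.00109 and 1.82e-08) and PANK1 (−0.43 and −0.40, adjusted p of 0.00472 and 0.00303) fell. Around the OAS genes, DTX1, a NOTCH target, fell to 506 CPM with ACBI-1 in DND-41, against 1385 CPM with DMSO, and to 3.09 CPM with ACBI-1 in MOLT-4, against 37.6 CPM with DMSO (−1.44 and −3.61, adjusted p of 6.16e-10 and 4.02e-14). NAA25, a subunit of an N-terminal acetyltransferase, rose in both lines (0.43 and 0.48, adjusted p of 5.79e-05 and 6.63e-06). STAMBPL1 beside the IFIT genes, and RASAL1 and PTPN11 beside the OAS genes, also fell in both lines. RPL6 and DDX54 beside the OAS genes passed in neither.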
